A study of Homo sapiens with 24 samples.

Results

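The comparison described here is that of small RNA in HEK293 cells overexpressing lamin B1 (LMNB1) with small RNA in HEK293 cells overexpressing enhanced green fluorescent protein (GFP), taken over every annotated feature of the deposited count table. Its members are 6 libraries, 3 per group, of 24 in the series. The table lists 175946 non-coding features, of which 33893 had enough counts to be tested. HEK293 is an established human embryonic kidney line, and the labels give its genotype as wild type. The study overexpressed eGFP, LMNA, LMNB1 or LMNB2, with 3 small RNA and 3 ATAC-seq libraries per group, and its title places the work in RNA polymerase III (Pol III) activity and chromatin organisation. The LMNA and LMNB2 libraries enter below only to share the estimate of spread and to test whether a difference was also one from another lamin. The expression vector, the time after its delivery and whether replicates came from separate cultures are not given in the sources used here, so p-values measure only the spread between these libraries, which may be technical.

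Lamin B1 is a filament protein of the nuclear lamina, the meshwork under the inner nuclear membrane that contacts largely silent chromatin. Small RNA libraries hold microRNAs and the short structured RNAs made by Pol III, among them transfer RNA, 5S rRNA and 7SK, together with snRNAs, snoRNAs and fragments of longer transcripts. Many genes induced by interferon, the cytokine family of antiviral defence, carry in their promoters an interferon-stimulated response element, which is bound by a complex that includes an IRF protein.

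Total counts ran from 135748281 to 184603455 in GFP and from 153747548 to 167068016 in LMNB1. GFP replicate 3 stood apart. All 118 features whose fitted log2 fold change was below −2 had their highest GFP level in that library, and none of them passed the adjusted test. The tRNA gene tRNA-Ile-TAT-1-1 had 0.627, 0.375 and 55.4 CPM (counts scaled to the TMM-adjusted library total) in GFP replicates 1 to 3 and 0.646, 0.624 and 0.859 in LMNB1. MicroRNAs that mark other cell types summed to 1.72, 3.09 and 10.7 CPM in GFP and to 2.97 to 3.56 in LMNB1. Of these 17 markers, 3 were at 0 in all 6 libraries and 15 stayed under 1 CPM. Most of the sum in GFP replicate 3 came from MIR126, at 4.39 CPM, and MIR192, a marker of kidney and gut epithelium, at 5.19 CPM. MicroRNA features in general were also high in that library. Their median log2 level relative to the GFP mean was −0.65, −0.24 and 0.94 in GFP replicates 1 to 3. In such bulk libraries fewer cells with an RNA and less RNA per cell cannot be told apart. Class medians and calls that turn on GFP replicate 3 are therefore given with and without it. Values by amino acid are given with all libraries only.

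A feature is called where its p, from the quasi-likelihood test of edgeR and adjusted by Benjamini-Hochberg over all tested features, is under 0.05. Between LMNB1 and GFP 13 features were called, 0.0384% of those tested. All 13 were higher in LMNB1 (0.0384%) and 0 were lower (0%). By unadjusted p under 0.05, 756 features were higher (2.23%) and 1111 lower (3.28%). DESeq2 called 21 features, also all higher, the 13 among them. The median log2 fold change of all tested features was −0.05.

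The 13 features lie at 6 places in the genome. At 3 of them lie genes that interferon induces in antiviral defence, namely OAS1, OAS3 and OAS2 on chromosome 12, IFIT2 and IFIT3 on chromosome 10, and IFI44L and IFI44 on chromosome 1. The others are LMNB1 itself on chromosome 5, TFAP2A on chromosome 6, which encodes the developmental transcription factor AP-2 alpha, and B2M on chromosome 15, which encodes the shared light chain of MHC class I molecules and is also induced by interferon. Of the 13 features, 12 are annotated as lncRNA and 1, over LMNB1, as a signal recognition particle RNA relative. Counting did not separate strands in this table: all 93 tRNA genes with at least 100 counts inside an lncRNA interval of the opposite strand had at least 90% of their count in that interval too. Reads of an interval therefore cannot be assigned to the lncRNA rather than to the coding gene under it.

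**Figure D1:**
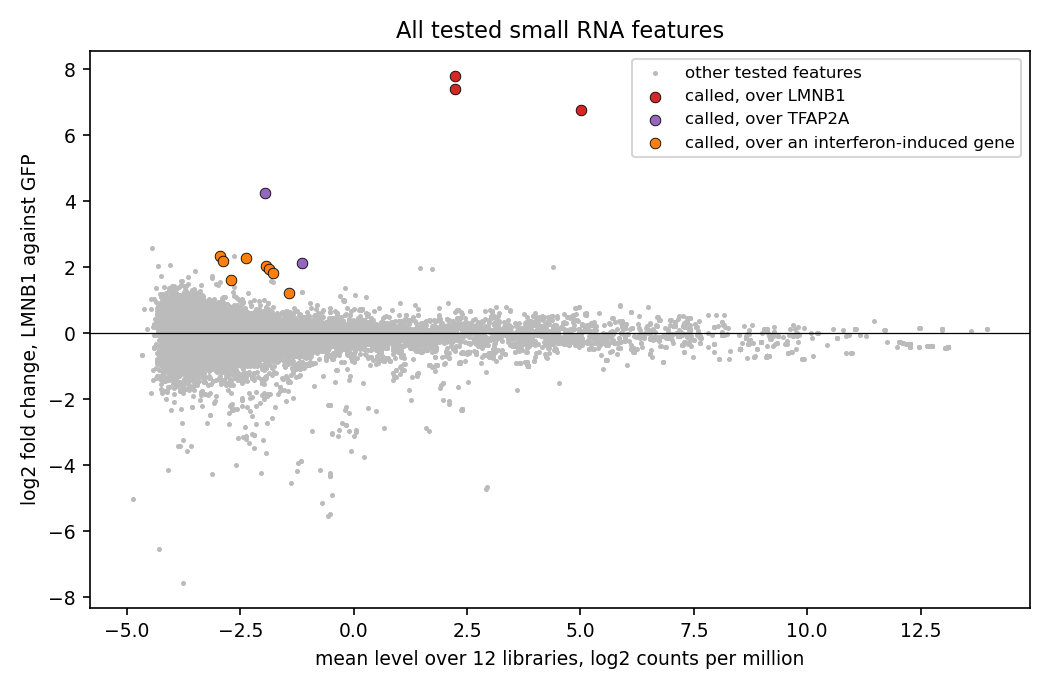
Log2 fold change of LMNB1 against GFP (vertical axis) against the mean level over 12 libraries in log2 CPM (horizontal axis), a point per tested feature. The 3 called features over LMNB1 lie between 6.77 and 7.79, the 2 over TFAP2A at 2.12 and 4.25, and the 8 over interferon-induced genes between 1.23 and 2.34, at low mean levels.

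The promoters of 4 of the genes under the called features are shown because they carry the core of the interferon-stimulated response element, spelled GAAANNGAAA and searched on both strands. Each line gives the 200 bases before the gene's start, from RefSeq (GRCh38.p14), 5′ to 3′ on the gene's strand, and capitals mark the matches, which overlap each other in B2M.
IFIT3, chr10:89327797-89327996, + strand: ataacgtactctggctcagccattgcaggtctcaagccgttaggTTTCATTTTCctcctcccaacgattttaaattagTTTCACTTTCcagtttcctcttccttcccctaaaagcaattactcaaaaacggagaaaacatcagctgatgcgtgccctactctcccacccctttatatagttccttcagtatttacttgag
OAS3, chr12:112938274-112938473, + strand: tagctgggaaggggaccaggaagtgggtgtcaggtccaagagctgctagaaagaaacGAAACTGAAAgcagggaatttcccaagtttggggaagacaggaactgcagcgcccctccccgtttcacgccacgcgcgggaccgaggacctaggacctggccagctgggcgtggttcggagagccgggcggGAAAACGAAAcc
IFI44L, chr1:78620248-78620447, + strand: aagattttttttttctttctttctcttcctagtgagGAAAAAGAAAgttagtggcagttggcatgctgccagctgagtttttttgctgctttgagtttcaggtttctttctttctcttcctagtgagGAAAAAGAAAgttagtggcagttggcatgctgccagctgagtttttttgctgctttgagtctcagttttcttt
B2M, chr15:44711317-44711516, + strand: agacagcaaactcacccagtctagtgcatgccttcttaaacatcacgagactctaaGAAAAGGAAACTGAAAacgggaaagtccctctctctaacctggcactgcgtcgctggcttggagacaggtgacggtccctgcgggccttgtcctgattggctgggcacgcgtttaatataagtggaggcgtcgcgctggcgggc
Over windows from 250 bases before to 50 after the start, 1255 of 35116 RefSeq promoters held the motif on either strand (3.57%). It stood in the windows of IFI44 too, and this exact spelling was absent from those of OAS1, TFAP2A and LMNB1. The OAS1 window holds gaaacgaaa, whose repeats lie closer together than the spelling allows. A missing match therefore does not show that the element is absent. Promoters of IFIT2 and OAS2 were not available to search, and those of LIPA, SPMIP10 and MARCHF3 are not given. A match is a string of letters and not a measured binding site.

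At LMNB1, the overexpressed gene, 3 of 5 tested features were called. The LMNB1-DT interval at chr5:126777177-126778255, which lies inside the 5′ end of LMNB1, had 7, 15 and 13 counts in GFP and 2953, 3152 and 3028 in LMNB1. That is a log2 fold change of 7.79 ± 0.27 (SE; edgeR adjusted p = 1.54e-11). A 308208 bp interval named as a signal recognition particle RNA, chr5:126627727-126935934, spans all of LMNB1 and also SPMIP10 and MARCHF3. It held 122, 170 and 204 counts in GFP and 20308, 22006 and 20387 in LMNB1, a log2 fold change of 6.77 ± 0.25 (edgeR adjusted p = 2.33e-11). The 2 LMNB1-DT intervals that lie almost wholly upstream of the gene did not differ. The one ending at 126776943 had 10, 9 and 17 counts in GFP and 17, 11 and 13 in LMNB1, a log2 fold change of −0.03 ± 0.31. The signal in the LMNB1 libraries thus lay over the gene and not over its divergent neighbour.

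IFIT2 and IFIT3 encode interferon-induced proteins with tetratricopeptide repeats that act against viral RNA, and 5 called intervals cover them. The intervals overlap in part and share reads, so they are a single locus and not 5 independent results, and LIPA, which encodes lysosomal acid lipase, lies under them too. The interval with the strongest test, lnc-CH25H-2 at chr10:89277641-89342699, had 22, 14 and 18 counts in GFP and 72, 77 and 98 in LMNB1. In CPM this was 0.131 ± 0.0501 against 0.491 ± 0.0691 (SD, n = 3), with no overlap between groups. Its log2 fold change was 1.94 ± 0.23 (edgeR adjusted p = 0.000782). A shorter lnc-CH25H-2 interval at chr10:89335311-89342684, over the last part of IFIT3, went from 8, 5 and 7 counts in GFP to 35, 36 and 50 in LMNB1, a log2 fold change of 2.34 ± 0.28 (edgeR adjusted p = 0.000966). The NONHSAG006481.2 interval beside it had 2.19 ± 0.28, and lnc-CH25H-1, the weakest of the 5, had 1.62 ± 0.27 (edgeR adjusted p = 0.0365). With only the 6 GFP and LMNB1 libraries in the fit none of the 5 passed, the other 4 standing at edgeR adjusted p of 0.0607 to 0.11, and lnc-CH25H-1 passed in 3 of the 12 fits that leave out a library. The interval nearest to IFIT2 alone, lnc-CH25H-2 at chr10:89293614-89308227, had 7, 4 and 4 counts against 19, 20 and 27 and did not pass (edgeR adjusted p = 0.283).

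OAS1, OAS2 and OAS3 encode the oligoadenylate synthetases, sensors of double-stranded RNA that activate RNase L. The lncRNA interval AC004551.2, chr12:112907603-113017776, covers the 3 genes over 110174 bp. It held 16, 18 and 23 counts in GFP and 83, 66 and 86 in LMNB1. The GFP libraries were close together, at 0.137, 0.132 and 0.13 CPM, and all LMNB1 libraries lay at or above 0.404 CPM. The log2 fold change was 1.81 ± 0.21 (edgeR adjusted p = 0.000579).

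IFI44L and IFI44 are neighbouring interferon-induced genes. The lnc-ADGRL4-6 interval over them, chr1:78568670-78664103, had 12, 5 and 19 counts in GFP and 59, 72 and 75 in LMNB1. Every LMNB1 library exceeded every GFP library, and the log2 fold change was 2.29 ± 0.34 (edgeR adjusted p = 0.0111). The call was lost without LMNB1 replicate 2 or 3 and without GFP replicate 1 or 2. It was also lost with total-count scaling and with only the 6 GFP and LMNB1 libraries. The edgeR adjusted p rose to at most 0.131, while the log2 fold change stayed between 1.96 and 2.64.

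At B2M the lnc-TRIM69-2 interval, chr15:44715701-44716964, lies inside the gene. It had 26, 45 and 35 counts in GFP and 84, 110 and 100 in LMNB1, a log2 fold change of 1.23 ± 0.19 (edgeR adjusted p = 0.018). It was not called without GFP replicate 1, without LMNB1 replicate 2 or 3, with total-count scaling or with only the 6 GFP and LMNB1 libraries (edgeR adjusted p up to 0.528). The NONHSAG016749.2 interval from 44711462 to 44718183 matches the whole gene and had 101, 119 and 124 counts in GFP and 205, 249 and 230 in LMNB1. Its log2 fold change of 0.75 ± 0.17 did not pass (edgeR adjusted p = 0.337), although the groups did not overlap. The MIR10393 interval at the 3′ end of B2M had 22, 15 and 22 counts against 20, 34 and 30.

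TFAP2A is transcribed from the minus strand, and the 2 called intervals of lnc-TFAP2A-3 both reach its start. The longer, chr6:10404643-10419684, had 19, 35 and 46 counts in GFP and 184, 186 and 129 in LMNB1, a log2 fold change of 2.12 ± 0.21 (edgeR adjusted p = 0.000123). The shorter, chr6:10418164-10419648, lies within the longer and held 144, 155 and 105 of those LMNB1 counts, against 2, 10 and 6 in GFP. Its log2 fold change was 4.25 ± 0.55 (edgeR adjusted p = 0.0365). Most LMNB1 counts of the longer interval thus fell in the 1485 bp at the start of the gene. Intervals over the body of TFAP2A did not share the difference: lnc-TFAP2A-3 at chr6:10404596-10417232 had 17, 25 and 40 counts in GFP and 40, 31 and 27 in LMNB1, and TFAP2A-AS1 at chr6:10409316-10416472 had 7, 16 and 27 against 27, 18 and 10. The shorter interval was called in 3 of the 12 fits that leave out a library, and the longer in all 12.

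**Figure D2:**
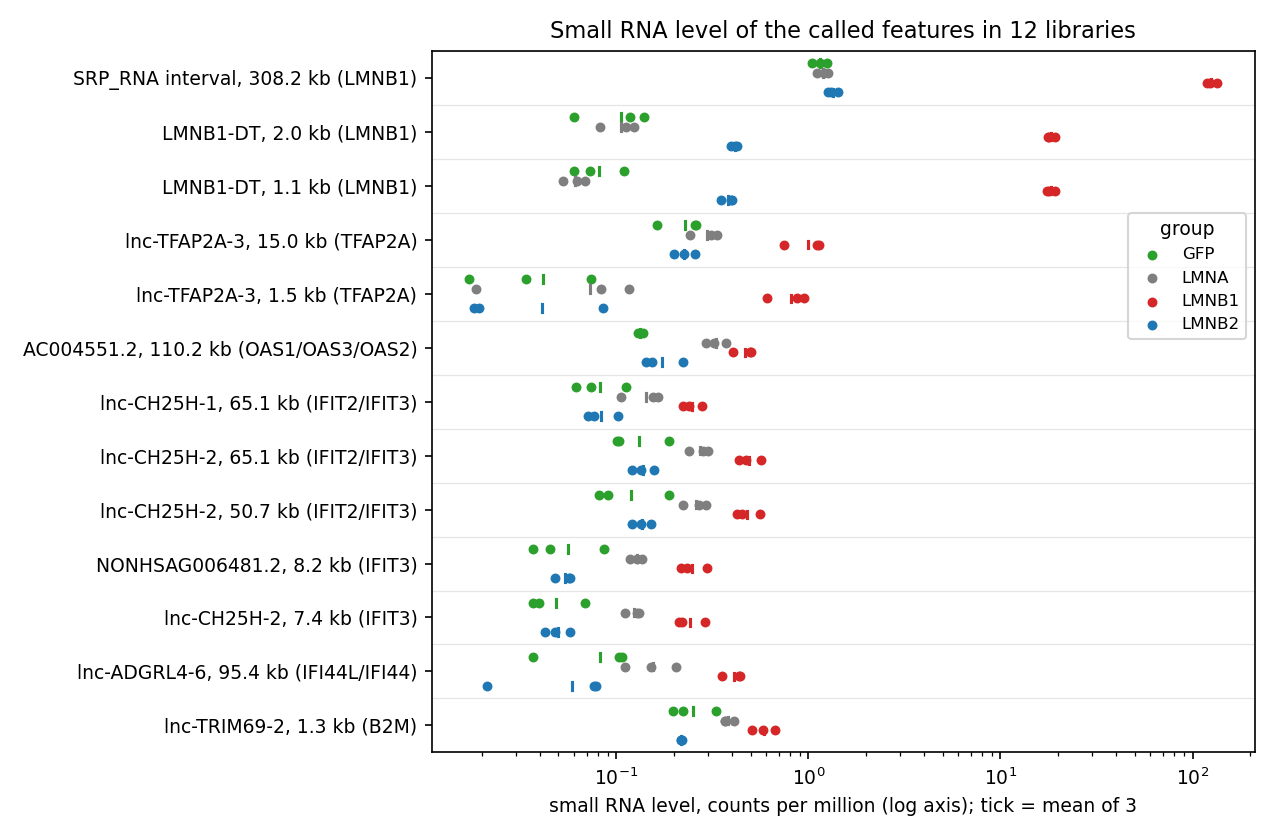
Level of the 13 called features in CPM (horizontal log axis), a point per library for 12 libraries in 4 groups, with a tick at the mean of each group's 3 libraries and with the interval's length and the gene under it on the vertical axis. The LMNB1 points lie to the right of the GFP points in every row, and the LMNA points lie between them in the OAS, IFI44L and B2M rows and in the IFIT rows other than that of lnc-CH25H-1.

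The other lamins place these differences. Comparisons of LMNA and LMNB2 with GFP use the same GFP libraries, so their values are given side by side with those of LMNB1 and not counted as agreement. The 13 features were picked as high in the LMNB1 libraries, which comparisons with the other lamins use again. Counts of calls against LMNA and LMNB2 therefore follow in part from that choice. Against LMNB2, all 13 features were called higher in LMNB1, where 2.19% of all tested features were called. At the LMNB1-DT interval of 1079 bp the LMNB2 libraries had 66, 55 and 56 counts, themselves above the 7, 15 and 13 of GFP, a log2 fold change of 2.22 ± 0.24 (edgeR adjusted p = 0.000162). Against LMNA, 4 of 13 were called, where 0.0118% of all tested features were. The 4 are the 3 over LMNB1 and the longer lnc-TFAP2A-3 interval, whose log2 fold change of LMNB1 against LMNA was 1.75 ± 0.21 (edgeR adjusted p = 0.00117).

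With all libraries in the fit, the interferon-gene features did not pass between LMNB1 and LMNA. With only the LMNA and LMNB1 libraries, a fit chosen after the data were seen, more called features passed than lie over LMNB1 and TFAP2A. Some interferon-gene features therefore passed there, so the missed threshold depends on the libraries in the fit. The values that follow are from the fit with all libraries. AC004551.2 had 0.324, 0.373 and 0.292 CPM in LMNA, above all GFP libraries and below all LMNB1 libraries. LMNB1 exceeded LMNA there by 0.51 ± 0.18 on the log2 scale (edgeR adjusted p = 0.832), and LMNA exceeded GFP by 1.30 ± 0.21 (adjusted p = 0.326). For the lnc-CH25H-2 interval of 65059 bp, LMNB1 exceeded LMNA by 0.84 ± 0.20 (edgeR adjusted p = 0.832) and LMNA exceeded GFP by 1.09 ± 0.24 (adjusted p = 0.694). At lnc-ADGRL4-6, over IFI44L, the difference from LMNA was 1.39 ± 0.30 (edgeR adjusted p = 0.832). LMNB2 lay near GFP at these features, with log2 fold changes against GFP of 0.39 ± 0.23 at AC004551.2, 0.11 ± 0.26 at the same lnc-CH25H-2 interval and −0.46 ± 0.44 at lnc-ADGRL4-6. A missed threshold between LMNB1 and LMNA does not show that these lamins act alike.

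To describe interferon-induced genes beyond the called loci, a list of 71 such genes was written after the called features had been seen, and it contains the genes of those loci. It is therefore a description and was not tested. Of the 71 genes, 58 overlap some listed feature and 31 a tested one, and the 40 others enter no count. Each of the 31 was represented by the tested interval that matches its extent best, giving 28 distinct intervals. A gene can have entered the tested features through higher counts in LMNB1 alone, so the counts that follow support nothing on their own. Of the 28, 13 had LMNB1 libraries all above GFP and 0 all below, where 4.76% and 5.29% of all tested features did. At an unadjusted p under 0.05, 13 were higher and 0 lower, where 2.23% and 3.28% of all tested features were, and 3 were called. The median log2 fold change was 0.42, and it lay between 0.39 and 0.60 in the other fits. In LMNA and in LMNB2 the same 28 intervals had medians against GFP of 0.21 and 0.00, with the GFP libraries shared.

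Among the effectors, PLSCR1, a phospholipid scramblase, had 23, 23 and 14 counts in GFP and 62, 49 and 57 in LMNB1 over its full length, a log2 fold change of 1.22 ± 0.28 (edgeR adjusted p = 0.396). In LMNA and LMNB2 the same interval stood at 0.17 and −0.49 against GFP. The interval over part of IFI6 had 1.42 ± 0.45, that over EPSTI1 1.13 ± 0.35 and that over HERC6 0.82 ± 0.29, none of which passed. Of the signalling genes, IRF7, a transcription factor that amplifies the response, had 12, 9 and 13 counts in GFP against 22, 25 and 21 in LMNB1 (edgeR adjusted p = 0.856). The other 2 tested signalling genes stood at −0.13 ± 0.43 (IRF1) and −0.09 ± 0.44 (CCL5), and the median of the 3 was −0.09. The antigen-presentation gene HLA-E had 6, 8 and 8 counts against 15, 14 and 20, but stood as high or higher in the other lamins, at 1.05 in LMNA and 1.27 in LMNB2 against GFP.

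Other listed genes stayed near GFP. ISG20, an exonuclease, had 20, 30 and 30 counts in GFP and 27, 24 and 31 in LMNB1. ADAR, the RNA-editing enzyme, had 28, 28 and 21 against 21, 23 and 29, and GBP1, a guanylate-binding protein, 30, 38 and 37 against 31, 43 and 48. HERC5 had 23, 42 and 52 against 37, 49 and 44. The groups overlapped at each of these 4 genes, and the lowest of the 28 log2 fold changes was −0.44 ± 0.34 at HLA-F. The response element core stood in 43 of 76 promoters of the listed genes (56.6%), beside the 3.57% of all promoters. Among listed genes with a tested feature it stood in 18 of 30 promoters (60%). The list was made of genes known to be induced by interferon, so this share follows from that choice and says nothing about LMNB1.

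**Figure D3:**
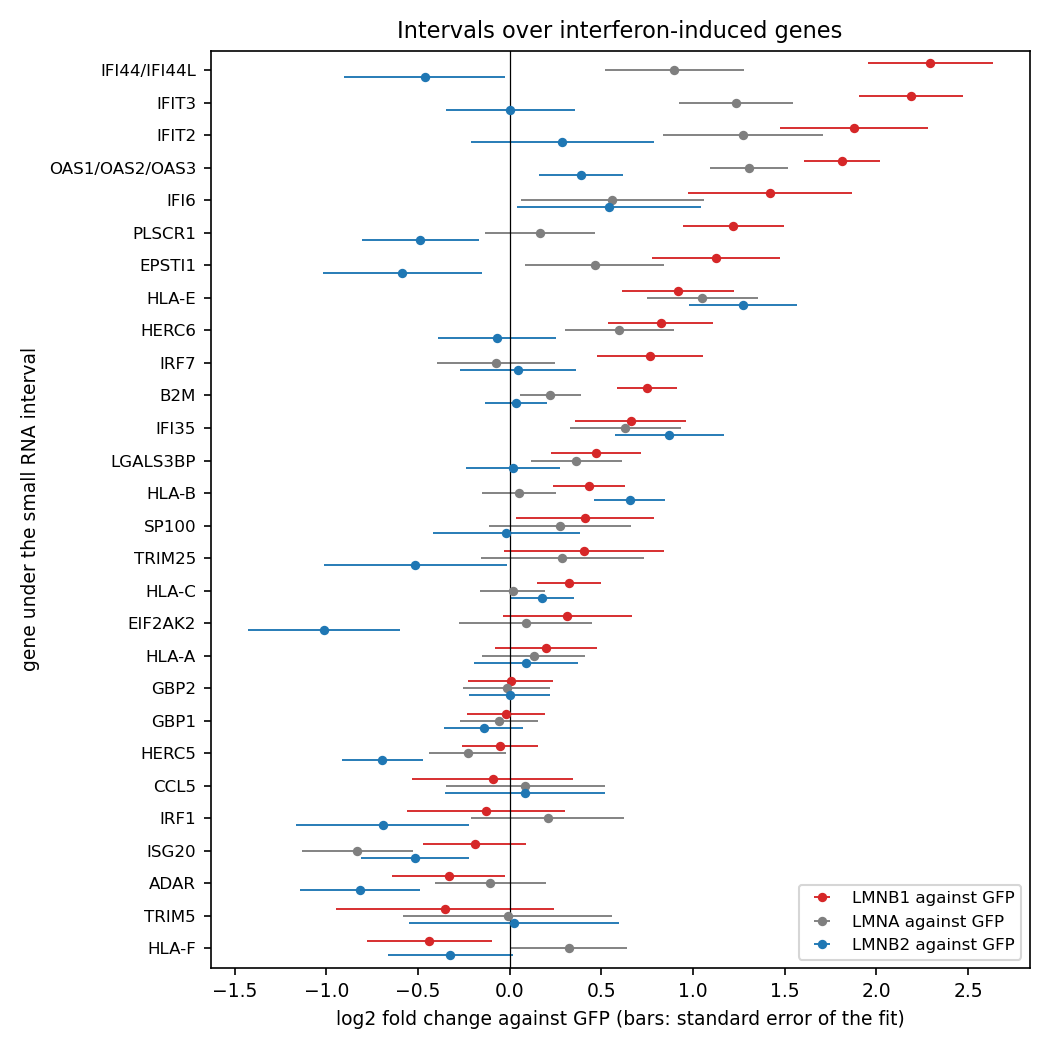
Log2 fold change against GFP with its standard error (horizontal axis) for the 28 intervals over listed interferon-induced genes (vertical axis), in LMNB1, LMNA and LMNB2. LMNB1 reaches 2.29 at IFI44 and IFI44L and 2.19 at IFIT3, LMNA lies at 0.90 and 1.23 there, and LMNB2 at −0.46 and 0.00.

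Chromatin accessibility gives a separate readout of the same features. ATAC windows were tested over all 163786 windows with enough counts, and 5 differed between LMNB1 and GFP, 0.00305% of them. The windows of all 13 called small RNA features were tested and 3 were called, all over LMNB1, at log2 fold changes of 8.73 to 9.90. LMNB1 is the overexpressed gene, and these counts cannot tell accessibility of the cell's own gene from DNA introduced for overexpression. None of the 10 other features was called, and 2 of them had a log2 fold change above 0. The windows are those on the features themselves, with flanking windows left out, so accessibility at the promoters was not measured separately. The lnc-TRIM69-2 interval does not reach the start of B2M. The window on AC004551.2 had 10.3, 11.6 and 11.4 CPM in GFP and 9.63, 10.6 and 10.8 in LMNB1, a log2 fold change of −0.10 ± 0.06. The window on the 65059 bp lnc-CH25H-2 interval had −0.11 ± 0.06 and that on the shorter lnc-TFAP2A-3 interval 0.02 ± 0.08. The window on lnc-TRIM69-2 was sparse, at 0.0755 ± 0.0185 CPM in GFP and 0.103 ± 0.0323 in LMNB1, a log2 fold change of 0.46 ± 0.40.

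**Figure D4:**
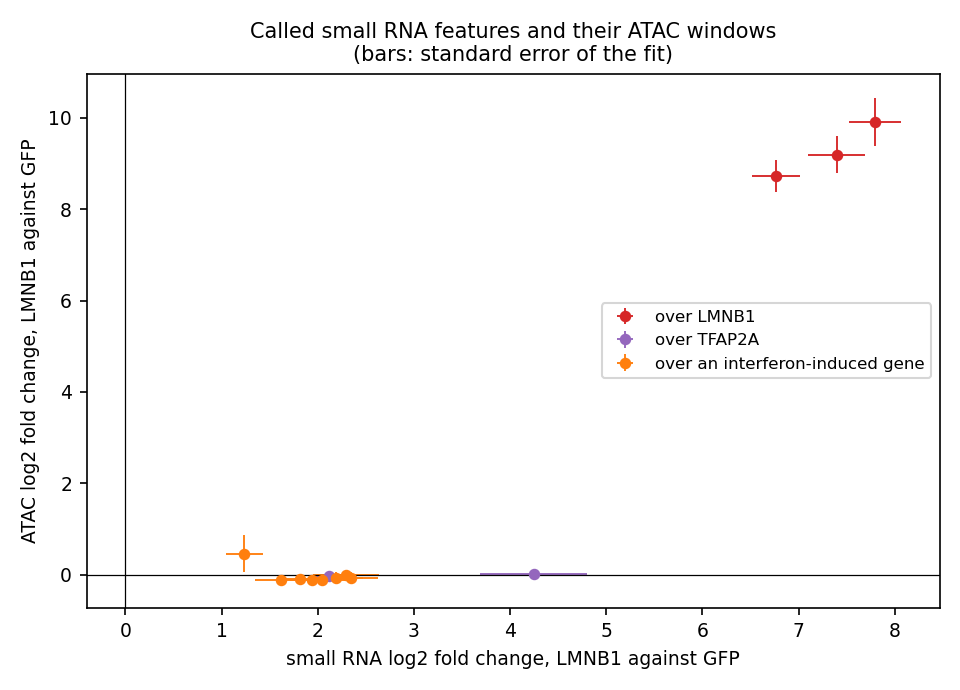
ATAC log2 fold change (vertical axis) against small RNA log2 fold change (horizontal axis), both LMNB1 against GFP, for the 13 called small RNA features with standard errors. The 3 features over LMNB1 lie at 8.73 to 9.90 in ATAC and 6.77 to 7.79 in small RNA, and the 10 others lie between −0.12 and 0.46 in ATAC.

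With all libraries, edgeR called no feature of the Pol III classes. Of 463 tested nuclear tRNA features, which encode the adaptors of translation, 30 were higher (6.48%) and 6 lower (1.30%) at an unadjusted p under 0.05. Of all tested features, 2.23% were higher and 3.28% lower. The class had a median log2 fold change of 0.07 and a lowest edgeR adjusted p of 0.473. The median was −0.12 without GFP replicate 2 and 0.38 without GFP replicate 3, so its sign rests on single GFP libraries. Without GFP replicate 3, edgeR called tRNA-Lys-TTT-3-1 at a log2 fold change of 1.14 (adjusted p = 0.00786), tRNA-Ala-AGC-9-1 at 1.01 (adjusted p = 0.029) and tRNA-Lys-TTT-2-2 at 0.91 (adjusted p = 0.0317), and with all libraries DESeq2 called tRNA-Tyr-GTA-10-1 and tRNA-Lys-TTT-9-1. The median level of the class relative to GFP was 0.02, −0.47 and 0.42 in the GFP libraries and 0.06, 0.11 and 0.21 in LMNB1, so the LMNB1 libraries lay within the GFP range. The lowest p belonged to tRNA-Asn-GTT-20-1, at 1.22, 1.72 and 1.15 CPM in GFP and 1.99, 2.91 and 2.77 in LMNB1, a log2 fold change of 0.91 ± 0.21. By amino acid, 25 of 27 tRNA-Asn and 25 of 30 tRNA-Cys features lay above 0, with medians of 0.30 and 0.21, where 44.1% of all tested features did. So did 20 of 21 tRNA-Pro features and 32 of 34 tRNA-Val features, with medians of 0.24 and 0.49. Among GFP libraries the levels of tRNA-Asn, tRNA-Cys, tRNA-Pro and tRNA-Val varied by SDs of 0.325, 0.376, 0.384 and 1.41. In the other direction, 0 of 10 tRNA-His and 6 of 33 tRNA-Gly features lay above 0. Their levels varied among GFP libraries by SDs of 0.925 and 0.416, and the LMNB1 libraries lay within the GFP range for both. The tRNA-His level was −0.44, −0.58 and 1.09 in GFP replicates 1 to 3 and −0.12, −0.02 and 0.02 in LMNB1. Near-identical gene copies share reads, so features of an amino acid are not independent. The median of 43 tRNA-Ala features was −0.50, and the level of that class varied by an SD of 0.893 among GFP libraries. The initiator tRNA, tRNA-iMet, had a median of 0.66 over 9 features with a GFP SD of 0.805.

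The abundant Pol III RNAs differed from GFP by less than their standard errors allow to call. The 5S rRNA copy RNA5S8 had 480, 264 and 392 CPM in GFP and 356, 355 and 316 in LMNB1, and none of the 17 copies passed at an unadjusted p under 0.05. RN7SK, the RNA that holds the elongation factor P-TEFb inactive, had 111, 160 and 82.8 CPM in GFP and 142, 134 and 149 in LMNB1, a log2 fold change of 0.26 ± 0.25. RN7SL1, the RNA of the signal recognition particle, had 15.4, 12.2 and 14 CPM against 15.2, 17.3 and 13.8. RNY4, a Y RNA of the Ro particle, had 963, 766 and 929 CPM against 929, 1051 and 998, and the vault RNA VTRNA1-2 had 1018, 799.9 and 957 against 1094, 859 and 1183.

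SNAR RNAs, a primate family bound by the protein NF90, had a median of 0.57 over 33 features. At an unadjusted p under 0.05, 0 were higher and 1 lower (3.03%, beside 3.28% of all tested features). SNAR-A1 had 79, 27.9 and 31.6 CPM in GFP and 47.1, 119 and 52.8 in LMNB1, which overlap. The class median was 0.11 without LMNB1 replicate 2 and 1.13 without GFP replicate 1. U6 snRNA, the Pol III member of the spliceosome, had a median of −0.34 over 9 features. At an unadjusted p under 0.05, 0 were higher and 2 lower (22.2%, beside 3.28% of all tested features). The 2 are RNU6-7 intervals on chromosome 14, with log2 fold changes of −0.74 ± 0.28 and −0.61 ± 0.28 (edgeR adjusted p = 0.861 for each). RNU6-1 on chromosome X had 5.26, 2.84 and 2.55 CPM against 2.63, 2.78 and 2.78, and without GFP replicate 1 the class median was 0.09.

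Among RNAs made by other polymerases, the C/D box snoRNAs, which guide methylation of rRNA, had a median of −0.18 over 194 features. At an unadjusted p under 0.05, 1 was higher (0.515%) and 16 lower (8.25%), beside 2.23% and 3.28% of all tested features. SNORD41 had 119.7, 32.9 and 33.4 CPM in GFP and 28.5, 26.8 and 33.3 in LMNB1, so GFP replicate 1 alone was high, and without that library the class median was 0.07. H/ACA box snoRNAs, which guide pseudouridylation, had 5 higher (3.82%) and 0 lower of 131 and a median of 0.03. SCARNA14, a guide RNA of Cajal bodies, had 4.15, 5.44 and 8.79 CPM in GFP and 9.49, 11.9 and 10.8 in LMNB1, with no overlap and a log2 fold change of 0.81 ± 0.24 (edgeR adjusted p = 0.777). Without GFP replicate 3 it passed at an adjusted p of 0.00279.

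The rRNA precursor RNA45SN2 had 13258, 14325 and 13915 CPM in GFP and 14374, 15836 and 14743 in LMNB1, a log2 fold change of 0.12 ± 0.25. The 46 features of the mitochondrial chromosome had a median of −0.12. At an unadjusted p under 0.05, 0 were higher and 3 lower (6.52%), beside 2.23% and 3.28% of all tested features. The mitochondrial aspartate tRNA MT-TD had 5.90, 4.5 and 6.44 CPM in GFP and 3.39, 3.62 and 4.30 in LMNB1, all below GFP (edgeR adjusted p = 0.777). GAS5, a host gene of snoRNAs, had a log2 fold change of −0.42 ± 0.33.

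MicroRNA levels in GFP spread widely. The mature miR-23 sequences are shown because the miR-23 family is a known repressor of lamin B1, and both carry the same seed, bases 2 to 8, in capitals (RefSeq, GRCh38.p14).
hsa-miR-23a-3p: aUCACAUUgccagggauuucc
hsa-miR-23b-3p: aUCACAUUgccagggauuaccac
The 7 features of the miR-23, miR-24 and miR-27 clusters had log2 fold changes of −0.79 to −0.35, and none passed at an unadjusted p under 0.05. MIR24-2 had 1.01, 1.57 and 5.92 CPM in GFP and 1.86, 2.21 and 2.23 in LMNB1, so the LMNB1 libraries stood between GFP replicates. The median of the 7 was −0.48 with all libraries and 0.92 without GFP replicate 3, a change of sign that rests on that library. The let-7 median, −0.68 over 20 features, became 0.39 without it, and that of the other microRNAs went from −0.32 to 0.39. The median of 11 features of the miR-17-92 and miR-106b-25 clusters likewise went from −0.51 to 0.37. MIR20A of the miR-17-92 cluster had 2.84, 1.40 and 3.90 CPM against 1.68, 1.67 and 1.65, a log2 fold change of −0.71 ± 0.25 (edgeR adjusted p = 0.811).

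The microRNA with the lowest p was MIR877, which arises from an intron of ABCF1. Its interval at chr6:30584372-30584442 covers the 3p arm, shown for that reason with its seed in capitals.
hsa-miR-877-3p: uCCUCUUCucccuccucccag
It had 0.816, 1.01 and 0.546 CPM in GFP and 1.25, 2.11 and 1.68 in LMNB1, with no overlap, a log2 fold change of 1.09 ± 0.22 (edgeR adjusted p = 0.215). The same interval stood at 0.45 in LMNA and 0.64 in LMNB2 against GFP.

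**Figure D5:**
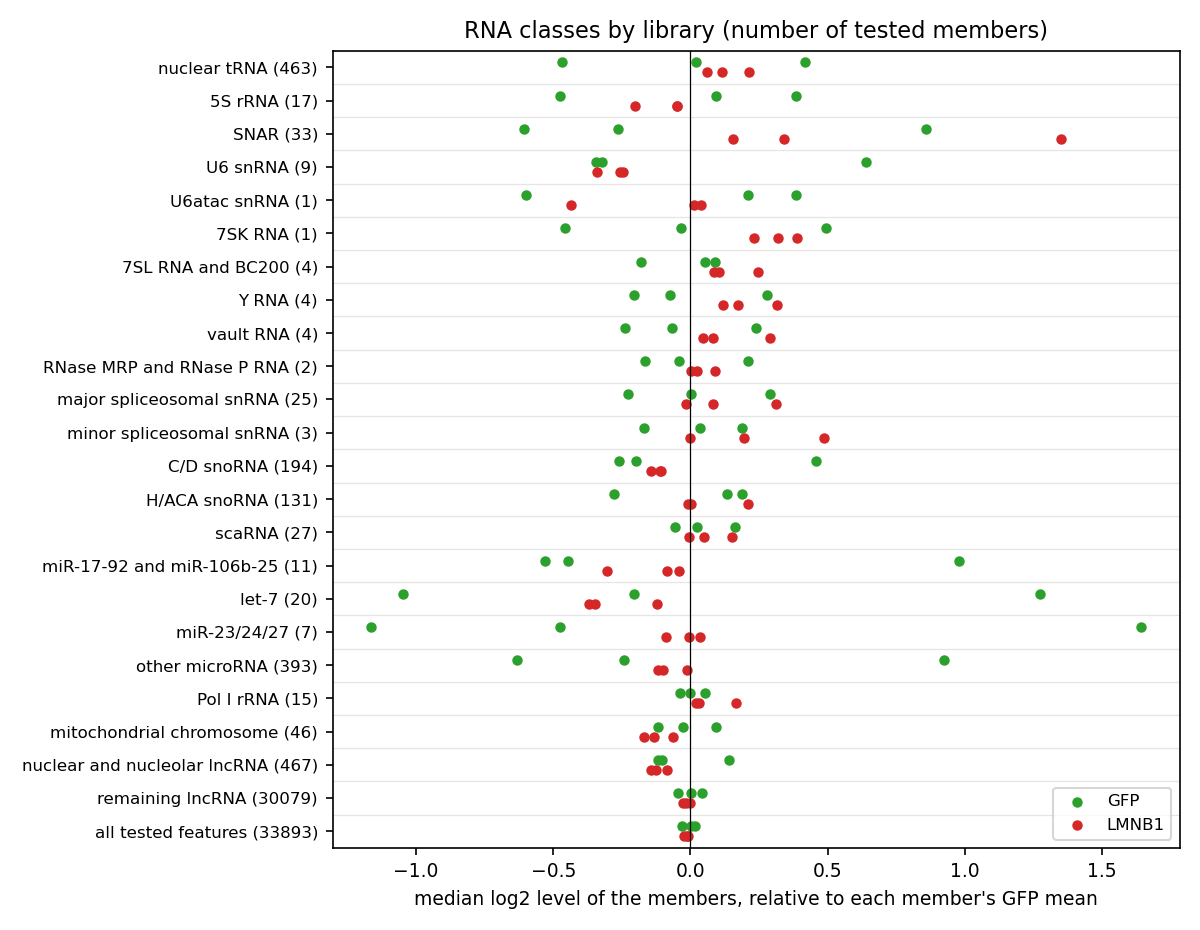
Median log2 level of each RNA class per library, relative to each member's GFP mean (horizontal axis), for 3 GFP and 3 LMNB1 libraries, with the number of tested members after the class name. The LMNB1 libraries of the let-7 and miR-23/24/27 classes lie inside the GFP range, in which GFP replicate 3 is the highest point.

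By annotated type, the lncRNA intervals held 30564 of the tested features, and 12 of the 13 calls, with a median of −0.05. No other type than lncRNA and the signal recognition particle RNA relatives held a call. By chromosome, the median ran from −0.16 on chromosome Y (52 features) to 0.03 on chromosome 22, beside −0.05 over all features. It was −0.13 on chromosome X, where the median levels of the GFP and LMNB1 libraries overlapped. The lowest adjusted p among features lower in LMNB1 was 0.215, at lnc-IMMP1L-7 over PAX6, the eye and brain transcription factor. It had 12, 16 and 21 counts in GFP and 6, 5 and 5 in LMNB1, a log2 fold change of −1.81 ± 0.37, and stood at −1.57 in LMNA and −0.85 in LMNB2 against GFP.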

How the data were processed

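Small RNA counts of 12 libraries and ATAC-seq counts of 12 libraries were deposited by the authors as raw counts per feature or window, a table per assay. Per the submitters' processing notes the genome build is GRCh38. The aligner, counting tool and treatment of multiply mapped reads are not given in the sources used here, and near-identical copies and overlapping intervals share reads. Groups came from sample titles and columns from sample descriptions. A single model per assay took all 12 libraries, in edgeR 4.0.16 under R 4.3.3, with filterByExpr, TMM scaling and robust quasi-likelihood dispersions (small RNA biological coefficient of variation 0.227). Log2 fold changes used a prior count of 0.125, the SE is the fold change over the root of F, and positions count from 1. Genes under intervals came from RefSeq (GRCh38.p14). On simulated data with 32455 features and the same spread in every group, the fit recovered 21 of 97 features changed 2-fold and 78 of 94 changed 4-fold. It called 9 unchanged ones. Libraries of a group differed beyond counting noise, with chi-square per degree of freedom of 7.61 to 553. Named features are those tested over LMNB1, all called ones (limit 30) and up to 3 members of highest mean level per fixed list; others were chosen after their values were seen. The members and lists were chosen with earlier results of these data known. Alternatives were another scaling, count filter, test (DESeq2 1.42.0) or threshold, subsets of features or libraries, a replicate block and each library left out. An item withheld from the text is not reported here.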

Additional observations from a re-analysis of the deposited data

How the results depend on the processing

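The 13 calls between LMNB1 and GFP were all kept with DESeq2's size factors, with a mean of at least 10 counts and without mitochondrial features. Total-count scaling kept 11. Counts that moved by over 1.5 times were 127 with no count filter (45 higher and 82 lower), 21 by DESeq2's test, 6 with only the 6 GFP and LMNB1 libraries and 1 without lncRNA features, where the lncRNA calls could not be made. With only those 6 libraries the calls outside LMNB1 were AC004551.2 and the 2 lnc-TFAP2A-3 intervals. Leaving out a library gave 9 to 36 calls, the most without GFP replicate 3, where 11 of the 13 remained and lnc-CH25H-1 and the shorter lnc-TFAP2A-3 interval were lost. The extra 25 calls then held 23 higher and 2 lower features. They include overlapping intervals of single loci, such as those of BANCR, so they are not independent results. With the replicate number as a block 11 of the 13 remained, lnc-CH25H-1 and the shorter lnc-TFAP2A-3 interval again being lost, and same-numbered LMNB1 and GFP libraries, whose deviations correlated at −0.03, 0.01 and 0.07, share only a number. The block left 4 calls of 13 against LMNA, 13 of 13 against LMNB2, 3 of 5 over LMNB1 and 2 of 3 ATAC windows. Against LMNA the calls were 7 with only the 6 LMNA and LMNB1 libraries, an alternative chosen after the data were seen since the GFP and LMNB1 libraries hold no LMNA library. The calls over LMNB1 stayed at 3 in every fit that kept lncRNA features, and each leave-one-out fit gave 4 calls against LMNA, 13 against LMNB2 and 3 ATAC windows. AC004551.2, the longer lnc-TFAP2A-3 interval and the 3 called LMNB1 features passed in every fit that tested them. Total counts moved the median of all features from −0.05 to 0.12, so class medians hold relative to TMM scaling. Depth and spread limit small changes: in the simulated comparison 21 of 97 features changed 2-fold were recovered. The simulation gave every group the same spread per feature. In the data, chi-square per degree of freedom was 107 to 553 between GFP libraries and 7.61 to 22.9 between LMNB1 libraries, so recovery there can differ.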

Other observations

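Without GFP replicate 3, 25 features beyond the 13 were called, none of them over a listed interferon-induced gene. BANCR, a lncRNA described in melanoma, then had a log2 fold change of 1.80 (edgeR adjusted p = 0.0312) and had 1.10 with all libraries. MIR576 had 2.60 (edgeR adjusted p = 0.0203), against −0.08 with all libraries, so its value rests on that library. The C/D box snoRNAs SNORD19C and SNORD42A were the 2 lower features, at −0.96 and −1.07. By DESeq2's test with all libraries, the 8 further calls included tRNA-Tyr-GTA-10-1, at 0.78 (DESeq2 adjusted p = 0.0074), and tRNA-Lys-TTT-9-1, at 0.63 (DESeq2 adjusted p = 0.0493). The lnc-ZNF746-3 intervals among the 8 contain tRNA-Tyr-GTA-10-1 and are not independent of it.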
